A study of Homo sapiens with 6 samples.

Results

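The genes described here encode proteins of the intermediate filaments of HEK293, a cell line derived from human embryonic kidney. A list of 10 genes was followed by symbol: the neurofilament genes NEFL, NEFM and NEFH, the related neuronal genes INA and PRPH, VIM and NES, and the simple epithelial keratins KRT8, KRT18 and KRT19. The count table holds 57773 genes, and 9 of the 10 were found in it. NEFL has no row under the identifier that the annotation gives it (ENSG00000277586) and was not analysed here. KRT19 had 0 counts in every library, and the other 8 were among the 22010 genes with enough counts for a test.

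RNA was sequenced after Cas9 plasmids had been introduced with 4 guides against ZNF146 (sgZNF146), with 4 guides against ZNF507 (sgZNF507) or as an empty vector (EV), with 2 libraries per group. All 3 groups carried Cas9 and went through 36 h of puromycin selection and an outgrowth of 2 weeks in total, and no step of picking a clone is described, so each library stands for a mixed population. The libraries were ribosome-depleted and hold between 22724439 and 28524025 counts, with both of these extremes in sgZNF507. Values are given as CPM, the count scaled to the size of its library after TMM normalization, and, where genes are compared with each other, per kilobase of annotated exons (RPKM). ZNF507 was at 47.2 and 48.7 CPM in the sgZNF507 libraries against 72.0 and 75.5 in EV (log2 fold change -0.62, standard error 0.07, adjusted p = 0.00195 from edgeR). ZNF146 was at 99.2 and 103 CPM in the sgZNF146 libraries against 115 and 105 in EV (log2 fold change -0.13, standard error 0.08, adjusted p = 1.00 from edgeR), and the lowest library of all was one of sgZNF507 (88.4), so the RNA level of ZNF146 does not check that label. Both are RNA levels of edited genes, and the editing itself was not analysed here.

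Intermediate filaments are ropes of coiled-coil proteins that give a cell mechanical strength, and the subunit in use differs between cell types. Neurons build them from the light, medium and heavy neurofilament chains with alpha-internexin (INA) and, in peripheral neurons, peripherin (PRPH). Mesenchymal cells use vimentin (VIM), neural progenitors add nestin (NES), and simple epithelia use keratins, which assemble only as pairs of a type II chain (KRT8) with a type I chain (KRT18 or KRT19). Cultured lines such as HEK293 can hold several of these systems in the same cells.

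Start regions are shown for 4 members because their levels span the range described below. RefSeq promoters on GRCh38.p14 were at hand for 5 of the 10 members (VIM, NES, INA, PRPH and KRT8). The 100 bases before each annotated start are given 5′ to 3′ on the strand of the gene, at chr10:17228141-17228240 (plus strand) for VIM, chr1:156677408-156677507 (minus) for NES, chr10:103277038-103277137 (plus) for INA and chr12:49295047-49295146 (plus) for PRPH. Capitals mark the GC box GGGCGG or its reverse complement CCGCCC, and the TATA box TATAAA.
VIM: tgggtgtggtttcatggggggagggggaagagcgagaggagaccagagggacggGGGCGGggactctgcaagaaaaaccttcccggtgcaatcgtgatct
NES: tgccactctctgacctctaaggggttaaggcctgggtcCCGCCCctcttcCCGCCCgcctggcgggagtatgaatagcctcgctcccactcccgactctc
INA: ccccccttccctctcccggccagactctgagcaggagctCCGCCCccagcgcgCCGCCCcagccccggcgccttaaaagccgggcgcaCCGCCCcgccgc
PRPH: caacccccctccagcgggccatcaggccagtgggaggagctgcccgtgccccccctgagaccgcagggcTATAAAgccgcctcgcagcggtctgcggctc

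PRPH holds TATAAA 31 bases before its start, and its 250 upstream bases hold no GC box. The GC box occurs once for VIM, at 2 places for NES and at 4 for INA within 250 bases, of which 3 lie in the stretch shown. Over all 35116 promoters of the table, 10.7% hold TATAAA and 42.6% the GC box within 250 bases, on either strand. The same window of KRT8 holds neither, and its 100 bases nearest the start are chr12:52926470-52926569 (minus strand). Whether this is the start of the canonical KRT8 transcript was not tested. CCAAT or its reverse complement, found in 32.0% of all promoters, was in none of the 5 windows. Over those 250 bases INA had the highest GC content of the 5 (72.8%) with 30 CpG, and VIM the lowest (46.0%) with 8. These matches describe the letters only.

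Per kilobase of exon, vimentin RNA was the most abundant of the filament genes in every library. VIM lay between 195 and 222 RPKM, KRT18 between 25.5 and 30.1, NEFM between 18.2 and 21.3 and KRT8 between 8.74 and 11.3. NES followed with 6.53 to 8.43 RPKM and INA with 4.87 to 5.92. None of these neighbouring ranges overlapped over the 6 libraries. PRPH (0.414 to 0.752 RPKM) and NEFH (0.400 to 0.658) overlapped and cannot be ordered. With length taken from the canonical transcript in place of all annotated exons, KRT8 moved from a mean of 10.4 to 40.2 RPKM and passed NEFM (22.0), and VIM moved from 201 to 484, so the order of KRT8 and NEFM rests on the gene model.

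**Figure D1:**
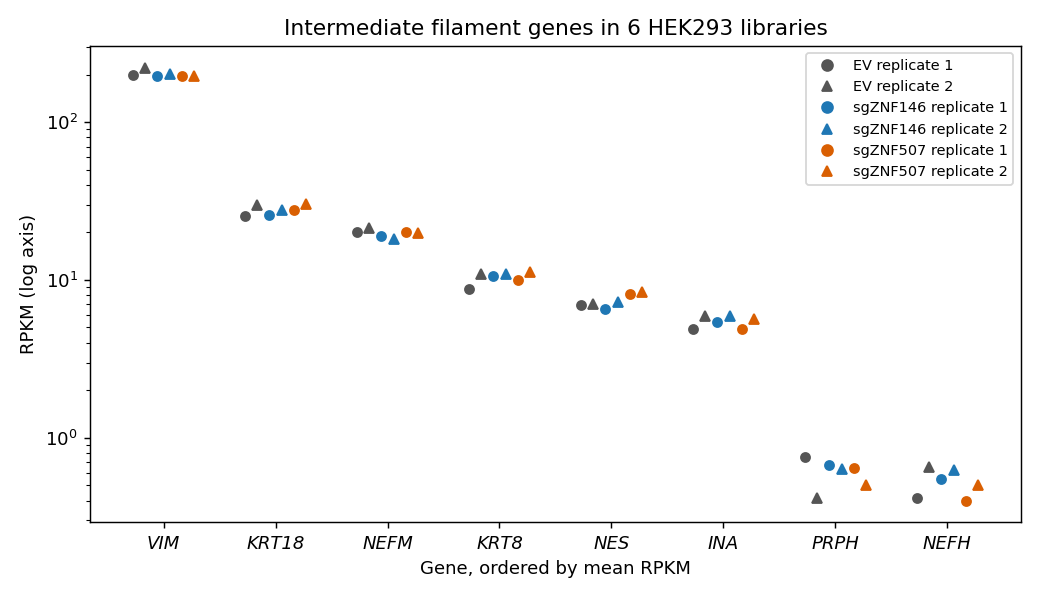
RPKM of the 8 detected filament genes (log axis) in each of the 6 libraries, with colors for groups and circles and triangles for replicates 1 and 2. VIM sits between 195 and 222 RPKM, and PRPH and NEFH lie at or under 0.752.

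On the scale of CPM, VIM exceeded 99.8% of all genes tested, KRT18 87.6%, NEFM 85.0% and KRT8 84.9%. NES exceeded 74.3%, INA 59.2%, NEFH 32.7% and PRPH 29.3%. Transcripts of the mesenchymal, neuronal and epithelial filament systems were thus present together in the same bulk RNA, in which a mixture of cells cannot be told apart from co-expression within a cell. Likewise, fewer cells of a type and less RNA per cell cannot be told apart in any comparison below. KRT19, the alternative type I partner of KRT8, was the exception: 0 counts allow at most 3, which corresponds to 0.104 to 0.13 CPM by library, counting error only.

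NEFM (ENSG00000104722, GRCh37 chromosome 8, 24771271 to 24776611, 3 exons) encodes the medium neurofilament chain. It was at 73.3 and 77.5 CPM in EV, 69.3 and 66.3 in sgZNF146 and 72.8 and 72.6 in sgZNF507. Both sgZNF146 libraries were the lowest of the 6, and those of sgZNF507 lay just under the lower EV library. The log2 fold change was -0.15 in sgZNF146 against EV (95% interval -0.30 to -0.01, unadjusted p = 0.0436, adjusted p = 1.00, both from edgeR). In sgZNF507 against EV it was -0.05 (interval -0.20 to 0.09), and -0.0154 without the second EV library.

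NEFH (chromosome 22, 29876207 to 29887379) encodes the heavy chain, which joins neurofilaments late in neuronal maturation. Its counts were few, with 39 and 69 in EV, 53 and 60 in sgZNF146 and 35 and 55 in sgZNF507. Scaled, this is 1.57 and 2.50, 2.09 and 2.38, and 1.52 and 1.90 CPM. The EV libraries alone spanned nearly the whole range. The interval of the log2 fold change ran from -0.83 to 0.33 in sgZNF507 against EV and from -0.43 to 0.69 in sgZNF146 against EV. Changes within these intervals were not excluded. Within a library, NEFM exceeded NEFH by 29.0 to 50.1 times in RPKM.

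INA (ENSG00000148798, chromosome 10, 105036895 to 105050103) encodes alpha-internexin, which can form filaments by itself and precedes the neurofilament chains in developing neurons. It was at 16.0 and 19.2 CPM in EV, 17.7 and 19.1 in sgZNF146 and 15.8 and 18.4 in sgZNF507. All 3 groups overlapped, and the 2 libraries of a group differed by more than the group means did. The log2 fold change was -0.04 in sgZNF507 (interval -0.30 to 0.23) and 0.06 in sgZNF146 (-0.20 to 0.33), each against EV. INA stood at 0.243 to 0.322 of the NEFM level in RPKM.

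PRPH (chromosome 12, 49688930 to 49692469), the filament protein of peripheral neurons, was counted 49 and 30 times in EV, 45 and 42 times in sgZNF146 and 39 and 38 times in sgZNF507. In CPM these were 1.97 and 1.09, 1.77 and 1.67, and 1.69 and 1.31. The highest and the lowest library were both EV. Its interval reached from -0.68 to 0.64 in sgZNF507 and from -0.46 to 0.84 in sgZNF146, the widest among the 8 members together with NEFH. Another gene is annotated on the opposite strand over exons of each of these 4. It is the coding gene NT5C2 for INA (1056 to 1401 counts a library) and a noncoding RNA gene for the others. The gene opposite PRPH, TROAP-AS1, had 97 to 136 counts, more than PRPH itself in every library, and the one opposite NEFM (ENSG00000272163) had 138 to 204. The gene opposite NEFH has no row in the table. The reads were mapped as strand-specific, but the strand setting of the counting is not given in the sources used here.

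VIM (ENSG00000026025, chromosome 10, 17270240 to 17279592, 10 exons) encodes vimentin, the filament of mesenchymal and many cultured cells. It was at 1027 and 1147 CPM in EV, 1012 and 1038 in sgZNF146 and 1012 and 1012 in sgZNF507. One EV library was above the rest, and the other 5 lay within a narrow band. VIM differed from EV by -0.10 in log2 in sgZNF507 (interval -0.25 to 0.04, a fold of 0.842 to 1.03) and by -0.08 in sgZNF146 (-0.23 to 0.06). Both values rested on the higher EV library, the second, without which they were -0.0251 and -0.0084, while without the first they were -0.18 and -0.16. The antisense gene VIM-AS1 was counted 194 to 352 times a library, against 23327 or more for VIM.

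NES (ENSG00000132688, chromosome 1, 156638555 to 156647199, minus strand) encodes nestin, a large chain that copolymerizes with vimentin and marks neural progenitors. It was at 38.7 and 39.2 CPM in EV, 36.4 and 40.5 in sgZNF146 and 45.3 and 46.9 in sgZNF507. Both sgZNF507 libraries lay above all 4 others, while EV and sgZNF146 overlapped. The means were 46.1 ± 1.19 in sgZNF507, 38.9 ± 0.372 in EV and 38.4 ± 2.89 CPM in sgZNF146 (SD, n = 2 each). The log2 fold change was 0.24 against EV (standard error 0.08, interval 0.07 to 0.42, unadjusted p = 0.0115) and 0.26 against sgZNF146 (standard error 0.08, interval 0.08 to 0.44, unadjusted p = 0.00736), in edgeR. Neither passed the adjustment over all genes (adjusted p = 1.00 and 0.931). When replicate number entered as a block, NES against sgZNF146 passed in edgeR (adjusted p = 0.0465) and not in DESeq2 (adjusted p = 0.777). VIM exceeded NES by 23.2 and 24.1 times in RPKM over all exons in sgZNF507 and by 27.6 to 31.5 times in the other libraries. On canonical transcript lengths the ratio was 55.7 to 75.6 over the 6 libraries, so its size rests on the gene model.

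**Figure D2:**
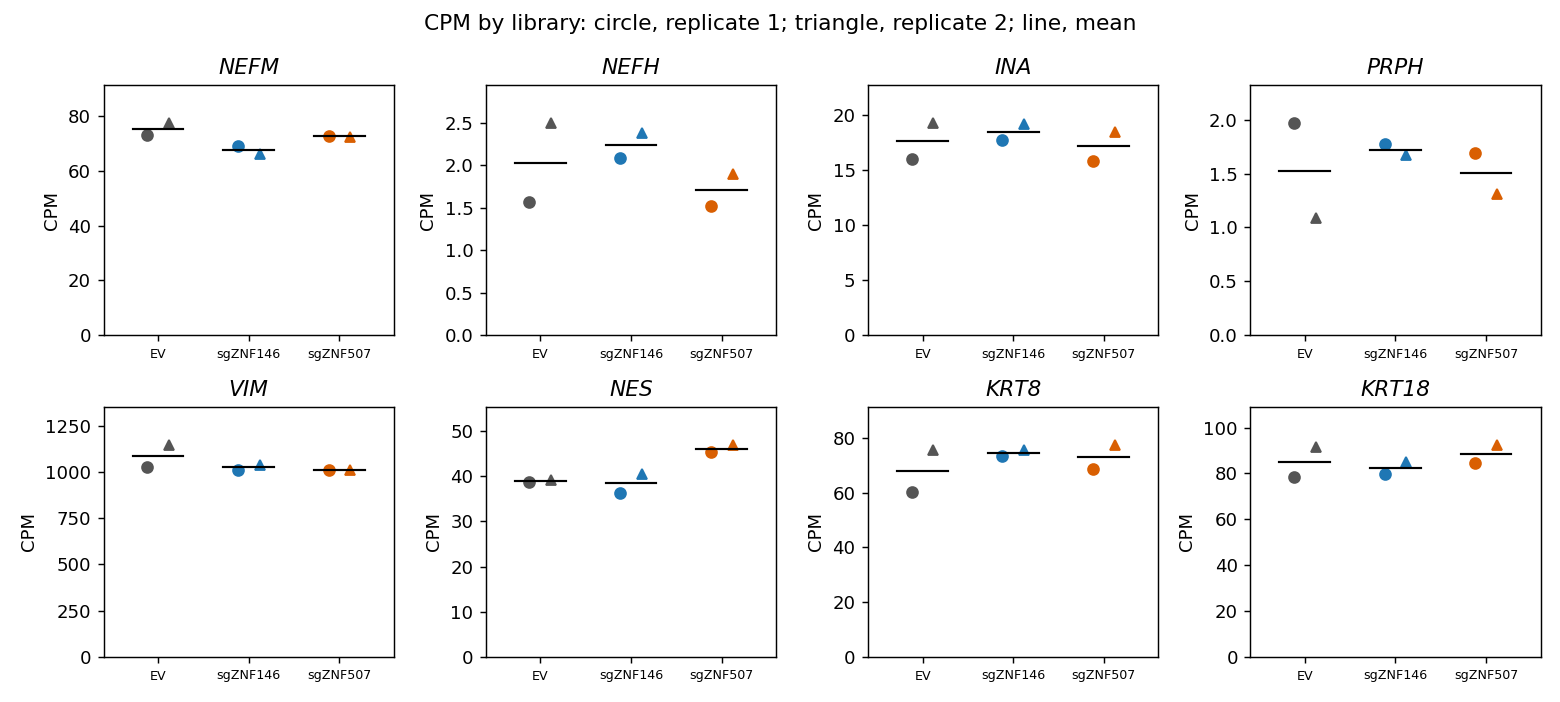
CPM of 8 filament genes by group, with circles for replicate 1, triangles for replicate 2 and a line for the mean of 2 libraries, on axes that start at 0. The sgZNF507 libraries of NES (45.3 and 46.9) are above the other 4, and most other panels overlap between groups.

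NES varied most among members with at least 100 counts in every library, with a highest value 1.29 times the lowest, and KRT8 followed closely (1.288). The 3 protein-coding genes with the most similar pattern of log2 CPM, among 10083 with a mean of at least 10 CPM, were MICALL1 (Pearson's r = 0.99), PELO (0.99) and ABT1 (0.99). These correlations rest on 6 libraries and were chosen as the highest of many. MICALL1 was at 199 and 201 CPM in EV, 194 and 204 in sgZNF146 and 211 and 214 in sgZNF507.

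KRT8 (ENSG00000170421, minus strand) and KRT18 (ENSG00000111057, plus strand) lie next to each other on chromosome 12, and their annotated ends overlap (53290971 to 53343738 and 53342655 to 53346690). KRT8 was at 60.1 and 75.5 CPM in EV, 73.2 and 75.4 in sgZNF146 and 68.5 and 77.5 in sgZNF507. KRT18 was at 78.3 and 91.5 CPM in EV, 79.7 and 85.1 in sgZNF146 and 84.6 and 92.5 in sgZNF507. For both genes the first EV library was the lowest of the 6, and the groups overlapped in each of the 3 comparisons. KRT8 differed from EV by 0.11 in log2 in sgZNF507 (interval -0.11 to 0.32) and by 0.13 in sgZNF146 (-0.08 to 0.35). The corresponding values of KRT18 were 0.06 (-0.12 to 0.24) and -0.04 (-0.22 to 0.14).

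The ratio of KRT8 to KRT18, the obligate partners, was 0.342 and 0.368 in EV, 0.410 and 0.395 in sgZNF146 and 0.361 and 0.374 in sgZNF507, in RPKM over all exons. On canonical transcript lengths it was 0.608 to 0.727. The sgZNF146 libraries had the highest ratios of the 6, an order that the choice of length cannot change. Among single genes, 14.0% were higher without overlap in sgZNF146 than in EV, and 16.5% were lower in sgZNF507 than in sgZNF146. The ratio itself was not tested.

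These keratins have many processed copies in the genome, which bears on how their reads were assigned. The annotation names 51 copies of KRT8 and 67 of KRT18 with a row in the table, of which 30 and 34 had a count. Of the windows of 50 bases (the read length) along the canonical transcript, 39.2% of KRT8 and 35.3% of KRT18 also stand in a transcript of another gene. For VIM, NES and INA this share was 0.0%, and for NEFM, NEFH and PRPH at most 2.64%. One coding window of KRT18 is shown as an example of a read that several places could have produced, 5′ to 3′ on the strand of the gene, from exon 1 (GRCh37 chr12:53343167-53343216).
KRT18: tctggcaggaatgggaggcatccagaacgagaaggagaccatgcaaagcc

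This window occurs at 6 places in GRCh37 and is shared with 5 named copies. Counts assigned to copies came to 32.0% to 43.6% of the KRT8 count and to at most 26.0% of the KRT18 count. The copies counted most were KRT8P46, KRT8P39 and KRT8P33, and KRT18P31, KRT18P5 and KRT18P15. Summed over copies, KRT8P genes gave 26.2 and 24.7 CPM in EV, 27.2 and 24.2 in sgZNF146 and 28.2 and 24.96 in sgZNF507. The summed KRT18P genes gave 20.4 and 20.1, 20.4 and 19.9, and 21.9 and 18.5 CPM. In each group the second library was lower for the copies and higher for the genes themselves. INA, NEFH and NES were also higher in the second library of every group, an order that 20.3% of all genes tested shared. The replicate number was made a term of an additive edgeR fit after this order had been seen, so its p-values come from the same values and are no separate support. The term, second library minus first in log2, was 0.18 for KRT8 (adjusted p = 0.0153) and 0.15 for KRT18 (adjusted p = 0.0315), and 7.25% of all genes had an adjusted p under 0.05 (3.81% as higher). It was 0.39 for NEFH, -0.43 for PRPH, 0.20 for INA, 0.07 for NES, 0.06 for VIM and 0.01 for NEFM, with adjusted p between 0.108 and 0.972 in edgeR. The labels do not say what sets the replicates apart. With the copies added, KRT8 ranged from 86.4 to 102 CPM and KRT18 from 98.7 to 112. How multi-mapping reads were treated is not given in the sources used here, so these shares do not bound how uncertain the counts of these 2 genes are. The windows stand for single reads, while the reads were sequenced in pairs.

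**Figure D3:**
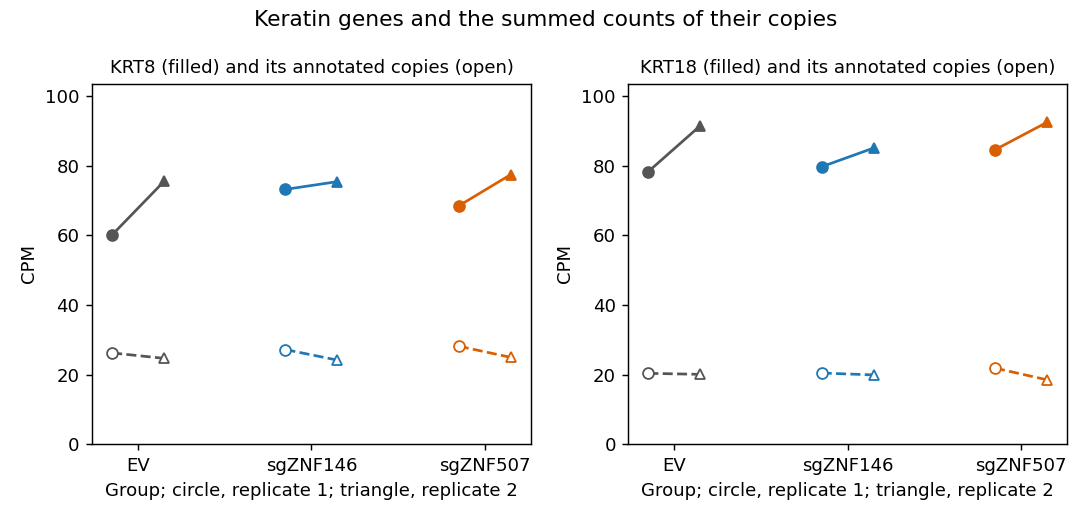
CPM of KRT8 (left) and KRT18 (right) as filled symbols and of their summed annotated copies as open symbols, by group, with circles for replicate 1 and triangles for replicate 2 joined by lines. KRT8 runs from 60.1 to 77.5 CPM while its copies stay between 24.2 and 28.2.

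The comparisons with EV ask whether disruption of either zinc finger gene changed gene expression, and both use the same EV libraries. The empty vector held no guide against a gene, so loss of a protein and cutting by Cas9 cannot be told apart in them. In sgZNF507 against EV the threshold of 0.05 on the edgeR adjusted p was met by 0 of the 8 filament genes, beside 0.182% of all genes. In sgZNF146 against EV 0 of the 8 passed, beside 0.0% of all genes, and in sgZNF507 against sgZNF146 0 of the 8, beside 0.173%. DESeq2 likewise called 0 of them in each comparison. At an unadjusted p under 0.05 there was 1 member in each: NES in sgZNF507 against EV (3.39% of all genes), NEFM in sgZNF146 against EV (2.43%) and NES between the 2 disruptions (4.03%).

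Libraries of sgZNF507 and EV did not overlap for 3 members, NES above and NEFM and VIM below, beside 29.3% of all genes (14.0% higher and 15.3% lower). For sgZNF146 and EV this held for NEFM alone, lower, beside 28.6% (14.6% lower). Between sgZNF507 and sgZNF146 it held for NES and NEFM, higher, and NEFH, lower, beside 32.1% (15.5% higher and 16.5% lower). An exact permutation test of 2 libraries against 2 cannot give a p below 0.333. The median absolute log2 fold change of the 8 members was 0.08 in sgZNF507 and 0.11 in sgZNF146 against EV, and that of all genes tested was 0.09 and 0.08. A difference of more than 1.5-fold was seen for 0 of the 8 in each comparison, beside 5.48% of all genes in sgZNF507 against EV, 4.77% in sgZNF146 against EV and 5.45% between the disruptions.

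**Figure D4:**
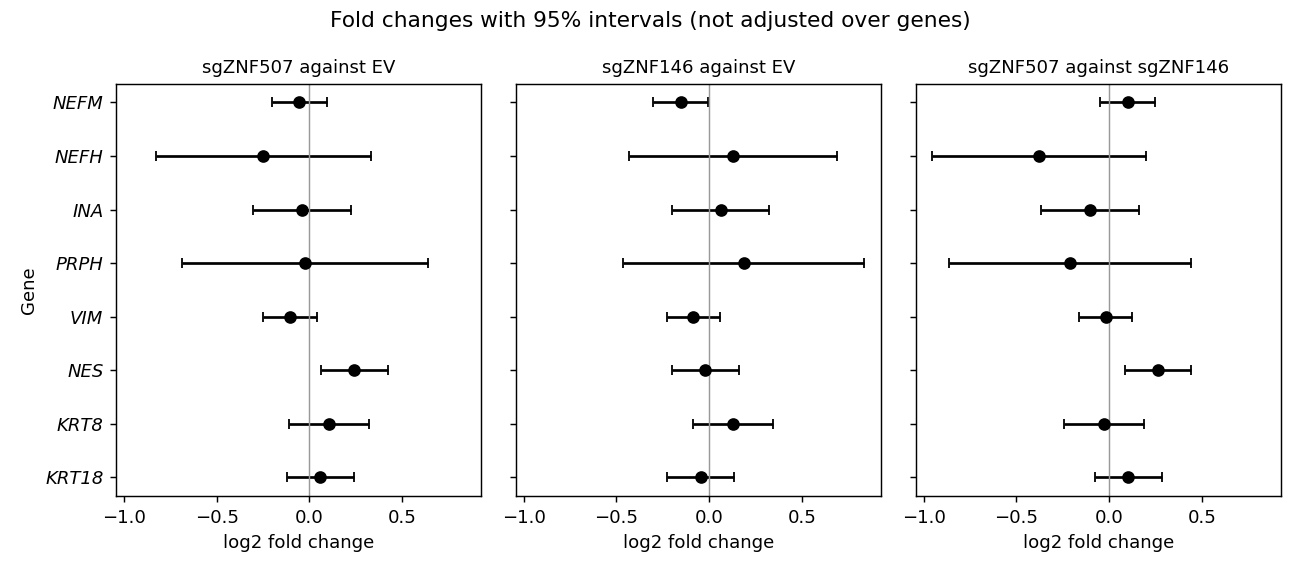
Log2 fold changes of 8 filament genes in the 3 comparisons, with 95% intervals from edgeR that are not adjusted for the number of genes. NES is above 0 in both comparisons that involve sgZNF507, and the intervals of NEFH and PRPH are the widest.

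Among the rest of the filament family most other keratins were at or near 0, while the lamins, which line the nucleus, and some other cytoplasmic filament genes were well detected. LMNB2 averaged 571, LMNB1 262 and LMNA 95.4 CPM over 6 libraries. Of 26 other type I keratins, 17 had 0 counts in every library and only KRT10 (11.5 CPM) and KRT15 (1.11) could be tested. Of 25 other type II keratins, 14 were at 0 throughout and none could be tested, and the 25 summed to at most 0.315 CPM in a library. Among the other cytoplasmic filament genes, IFFO1 (61.1 CPM), SYNM (46.9), which encodes the vimentin and desmin partner synemin, and IFFO2 (25.7) led, and desmin (DES, 0.861) and the astrocyte filament gene GFAP (2.57) were low. Of 3 lamins, 2 keratins and 7 other filament genes tested, 0 passed the threshold in a comparison in edgeR and 0 had an unadjusted p under 0.05.

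RNA of linkers that tie filaments to junctions and the other cytoskeleton ranged widely. PLEC (plectin) averaged 494, MACF1 411, DSP (desmoplakin) 358 and DST (dystonin) 345 CPM. PKP2 (plakophilin 2) averaged 39.2, FAM83H 34.4 and TCHP 31.7 CPM. PPL (periplakin) averaged 6.32 and EVPL (envoplakin) 0.369 CPM, and PKP1 (plakophilin 1) had 1 count in all. Motors that carry neurofilaments were led by DYNC1H1 (1196), the dynein heavy chain, and KIF5B (322), a kinesin. Of 9 linkers and 8 motors tested, 0 passed in either direction in each comparison, and none had an unadjusted p under 0.05. Of 18 kinases, phosphatases and turnover factors, 0 passed. At an unadjusted edgeR p under 0.05 there were 0 in sgZNF507 against EV (beside 3.39% of all genes) and 1 in sgZNF146 against EV (TRIM2, beside 2.43%). Between the disruptions there were 3 (CDK5, CDK1 and TRIM2, beside 4.03%). CDK5, a kinase of neurofilament tails, was at 53.6 and 49.95 CPM in sgZNF507, 44.03 and 47.9 in EV and 41.7 and 42.0 in sgZNF146. Its log2 fold change between the 2 disruptions was 0.31 (standard error 0.08, adjusted p = 0.497 from edgeR), the lowest adjusted p of these lists.

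Markers chosen for other cell types gave the setting of these levels. Of the mesenchymal list CDH2 (160.4 CPM), FN1 (100.1) and SPARC (97.4) were high. ZEB1 (49.5), ZEB2 (35.8) and TWIST1 (14.996) were present, and SNAI2 (1.38) and S100A4 (0.898) were low. Of the neuronal list UCHL1 (161), ENO2 (44.7), MAPT (32.9) and SYP (26.3) were present, and TUBB3 (5.54) and RBFOX3 (4.34) were lower. SNAP25 (1.58), GAP43 (1.55), MAP2 (1.44), DCX (0.334) and ELAVL3 (0.244) were low. STMN2 and ELAVL4 stayed at or under 0.174 CPM in every library. Of the epithelial list OCLN (40.7) led, followed by ESRP2 (18.4) and CDH1 (6.20 CPM). CDH3 (2.55), ESRP1 (1.92), EPCAM (1.45), CLDN4 (0.714) and GRHL2 (0.228) were low. Kidney genes SIX2 (13.1), WT1 (11.9) and PAX2 (6.15) were detected, while PAX8 had 8 counts over all libraries. The summed blood and endothelial markers reached at most 0.656 CPM in a library. The adrenal cortex markers summed to at most 1.30 CPM. Of all marker genes tested in edgeR 0 passed the threshold. At an unadjusted edgeR p under 0.05, sgZNF507 against EV had 1 of 7 epithelial (CDH3) and 1 of 6 fibroblast genes (COL1A1), beside 3.39% of all genes. In sgZNF146 against EV there were 1 of 8 mesenchymal (SPARC) and 2 of 7 epithelial genes (ESRP1 and ESRP2), beside 2.43%. Between the disruptions there were 1 of 11 neuronal (RBFOX3) and 1 of 6 fibroblast genes (COL1A1), beside 4.03%. The other marker lists had 0 in these comparisons.

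The summed fibroblast and glial markers were, like NES, highest in the sgZNF507 libraries. They are named because of this order, and the sums of the other marker lists overlapped between sgZNF507 and EV. Of single genes tested, 14.0% were higher without overlap in sgZNF507 against EV and 15.5% against sgZNF146. The fibroblast sum was 77.5 to 86.3 CPM in sgZNF507, 71.6 to 75.1 in EV and 68.4 to 73.5 in sgZNF146. Of these 6 genes 0 passed in edgeR, and COL1A1, a collagen gene, made up most of the sum (64.2 CPM on average, log2 fold change 0.18 in sgZNF507 against EV). Of the other fibroblast genes, COL3A1 averaged 7.33 and PDGFRA 1.87 CPM, and DCN, LUM and COL1A2 were at or under 1.34 CPM throughout. The glial sum was 9.22 to 9.85 CPM in sgZNF507, 8.03 to 8.36 in EV and 8.55 to 8.67 in sgZNF146, nearly all of it OLIG2, while S100B and SOX10 stayed at or under 0.0723. AQP4, also of the glial list, averaged 0.502 CPM and had a log2 fold change of -0.36 in sgZNF507 against EV. Any link of these sums to the NES values was not tested.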

How the data were processed

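RNA of HEK293 cells was sequenced as paired-end reads of 50 bases. The authors used the Fastx Toolkit for clipping, set ribosomal reads aside, mapped the remainder to hg19 with TopHat2 on Ensembl version 82 models and ran featureCounts. What they deposited are raw counts for each gene and library, neither normalized nor pooled. Tool versions are not given in the sources used here. No molecular identifiers are described, so floors cover counting error only. The labels only number the replicates of a group, and the authors describe them as biological duplicates. The p-values weigh differences between groups against the spread between these libraries. In edgeR this spread is estimated for each gene with help from the other genes (a median of 12.5 degrees of freedom in total).

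Symbols and GRCh37 coordinates came from GENCODE, which matched 96.1% of the 57773 identifiers. The tests used edgeR's quasi-likelihood fit (version 4.0.16, R 4.3.3, filterByExpr, TMM) to all 6 libraries, with p-values adjusted after Benjamini-Hochberg across the 22010 genes that passed the filter and a threshold of 0.05. Standard errors were derived from the F statistic and are approximate. Steps were tested on simulated data. Alternatives were other scalings and filters, DESeq2 1.42.0, fits of 4 libraries, the replicate number as a block and leaving out each library. Canonical transcript lengths, the sums with copies and the replicate term were added after seeing the data. Figures used matplotlib 3.10.9.

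The members and gene lists were chosen with earlier results of these data known. Named genes are the members, ZNF507 and ZNF146, up to 4 genes of highest mean CPM in each list with any gene past the threshold, up to 3 copies of highest count and overlapping genes of each member, and the 3 genes most like the member that varied most. All further list genes were named after their values were seen. EPPK1, LHX1 and PECAM1 matched no row.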

Additional observations from a re-analysis of the deposited data

How the results depend on the processing

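Over 14 alternatives to each comparison, the number of filament genes past the threshold stayed at 0 except in 1 case. With the replicate number as a block, edgeR called 1 of 8, NES in sgZNF507 against sgZNF146 (log2 fold change 0.26, adjusted p = 0.0465). DESeq2 with the block called 0. For NES against EV the adjusted p with the block was 0.117. Deviations of same-numbered libraries correlated between groups with r = 0.138 to 0.176 across 22010 genes, above 0.1 in each pair of groups. The labels do not say that a number marks a shared batch, and with 2 numbers a pairing by design cannot be told from the data. Over all genes the block moved the calls from 40 to 121 in sgZNF507 against EV, from 0 to 33 in sgZNF146 against EV and from 38 to 196 between the disruptions. Without a filter on low counts they were 101, 19 and 112, and DESeq2 with the block called 63, 0 and 75. The cause was not tested. In sgZNF146 against EV edgeR called 3 on the 4 libraries compared and 0 to 3 with 1 library left out. In sgZNF507 against EV they were 12 without the first EV replicate, 22 without the second and 25 without the first sgZNF507 replicate. Between the disruptions they were 13 without the first and 23 without the second sgZNF146 replicate.

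Some member differences, none past the threshold, changed sign. PRPH in sgZNF507 against EV was 0.0133 in DESeq2 with the block. With 1 library left out in turn (a lone library is then assumed to vary like the others), log2 fold changes in sgZNF507 against EV ranged from -0.53 to 0.13 for NEFH, -0.16 to 0.10 for INA, -0.41 to 0.46 for PRPH, -0.0449 to 0.28 for KRT8 and -0.0435 to 0.17 for KRT18. In sgZNF146 against EV they ranged from -0.16 to 0.51 for NEFH, -0.0637 to 0.20 for INA, -0.20 to 0.66 for PRPH, -0.10 to 0.0545 for NES, -0.0241 to 0.30 for KRT8 and -0.15 to 0.0676 for KRT18. Between the disruptions they ranged from -0.0321 to 0.0009 for VIM and -0.11 to 0.0581 for KRT8. The lowest values of KRT8 and KRT18 against EV in sgZNF507 came without the first EV replicate. VIM ranged from -0.18 to -0.0251 in sgZNF507 and from -0.16 to -0.0084 in sgZNF146 against EV. NES stayed between 0.23 and 0.27 against EV. Another scaling moved no level in CPM by more than 1.49%.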
